A study of Mus musculus with 23 samples.

Results

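RNA contacts that remained above background when the zinc finger 1 mutant of CTCF was cross-linked in neural progenitor cells (NPCs) are described here, from 2 lists of nucleotides called as cross-linked. One list was called with CTCF-ΔZF1 after UV and held 158490 sites on chromosomes 1 to 19, X and Y. The other was called without UV (noXL) and held 107227 sites. Together these were 265717 of the 1346716 sites in the 6 lists of the series. Sites were counted per gene on the gene's strand. A gene was compared where the lists together gave it 20 sites or more, which was the case for 3699 of 55413 annotated genes.

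The study used iCLIP2, in which RNA is tied to protein by UV and cDNA ends next to the tied base, in mouse E14 cells whose own CTCF (mAID-eGFP-CTCF) was degraded through OsTIR1(F74G) expressed from Rosa26. A Flag-Halo-tagged rescue CTCF was induced with doxycycline from the Tigre locus. Both NPC groups carried these alleles, were differentiated for 2 days in N2B27 medium, and received 1 µM 5-Ph-IAA and 1 µg/mL Dox for 24 hours. Nuclear RNA was recovered with anti-Flag beads from 4 libraries per group, which the authors pooled before calling sites. The UV group received 400 mJ/cm2 at 254 nm and expressed a rescue protein that lacks part of zinc finger 1. The noXL group was not irradiated and expressed WT rescue CTCF from another clone. UV, rescue protein and clone therefore differed together, and their parts in any value cannot be told apart. With 1 pooled list per group there was no replicate error and no test. Ranges in parentheses are 95% Wilson intervals, carried over to the ratios, and describe only the error of counting. Read depth is unknown, so list length and site number per RNA compare these lists and not the conditions.

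CTCF is a DNA-binding protein with a row of zinc fingers that holds chromatin loops together with cohesin, and several of its fingers, ZF1 among them, are known to contact RNA. UV at this wavelength links protein preferentially to uridine, and a list called without UV holds cDNA ends of other origin. A site count rises with the amount of an RNA as well as with its contacts. In these bulk samples fewer cells of a type and less RNA per cell cannot be told apart.

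Sequences around some of the best-scoring sites of both lists are shown first. The 21-nt windows are given 5′ to 3′ on the RNA strand of mm10 with the called nucleotide in capitals and T for uridine, and they were chosen because the genes are described later. The first 6 are the highest-scoring CTCF-ΔZF1 sites of Grip1 (chr10:119529627-119529647, plus strand, intron), Exoc4 (chr6:33352110-33352130, plus, intron), Magi1 (chr6:94196327-94196347, minus, intron), Podxl (chr6:31524997-31525017, minus, coding exon), Vim (chr2:13582579-13582599, plus, 3′ UTR) and Bcar3 (chr3:122525502-122525522, plus, intron):
Grip1 ΔZF1: atagcttattTggatgtattc
Exoc4 ΔZF1: tctcagcatgTttgtgtctgg
Magi1 ΔZF1: ctgtttccttCaggaactgca
Podxl ΔZF1: gctgaggattTgtgcactcta
Vim ΔZF1: gaaaacagctTtcaagtgcct
Bcar3 ΔZF1: agggacttgtTcctgcaatct
The highest-scoring noXL sites of 4 genes follow, for Grip1 (chr10:119644693-119644713, plus, intron), Magi1 (chr6:93794743-93794763, minus, intron), Exoc4 (chr6:33427505-33427525, plus, intron) and Bcar3 (chr3:122432017-122432037, plus, intron):
Grip1 noXL: ggatgtgattAtcttccgatc
Magi1 noXL: aagtgtcctgTtcttccgatc
Exoc4 noXL: aagagtcctgAagagctctga
Bcar3 noXL: gaccagagaaAgagctgcctg
The examples were picked by hand. Over all genes named by rule or after their values were seen, 86 of the 129 best CTCF-ΔZF1 sites and 25 of the 127 best noXL sites lie on uridine, and 8 and 23 on adenosine. Of the best CTCF-ΔZF1 sites of the 10 genes with the highest ratios outside chromosome 11, described later, 5 lie on uridine. The windows of Grip1 and Magi1 without UV end in the letters CCGATC. These 6 letters, read on the RNA strand only, stood in the 10 nt after 0.406% of noXL sites (0.369 to 0.446, 435 sites) and after 0.0580% of CTCF-ΔZF1 sites (0.0473 to 0.0712, 92 sites). At positions shifted by 500 and 1000 nt in both directions the shares were 0.0124% for noXL and 0.0145% for CTCF-ΔZF1. In ESCs the order of the lists was the other way round, with 0.138% for ΔZF1 and 0.0780% for noXL. The run also occurs near the end of a common Illumina sequencing adapter, and its part in the noXL list was not tested.

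The CTCF-ΔZF1 list was 1.48 times as long as the noXL list (1.47 to 1.49), and the excess lay on uridine. Uridine made up 58.5% of CTCF-ΔZF1 sites (58.3 to 58.8) and 27.9% of noXL sites, against 29.5% and 29.8% of their shifted positions. Sites on uridine numbered 92769 and 29883, a ratio of 3.10 (3.06 to 3.15). Sites on adenosine ran the other way, with 17270 and 26714 and a ratio of 0.646 (0.634 to 0.659). For cytidine the ratio was 0.925, and for guanosine 1.01 with an interval that holds 1 (0.987 to 1.03). The NPC list with WT CTCF and UV, shown for scale, had 63.9% uridine. Of 5-nt sequences centred on the site, UUUUU was the most common in the CTCF-ΔZF1 list at 1.56%, against 0.389% without UV. Among the more common ones, AUUGC and UUUGC had the largest gains, with shares 7.22 and 6.86 times those without UV. A run of UUUUU anywhere in the 21-nt window was held by 5.83% of CTCF-ΔZF1 windows, 3.77% of noXL windows and 5.04% and 5.38% of shifted windows.

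Most sites of both lists stood alone, with no other site of the list within 8 nt, 89.6% with CTCF-ΔZF1 and 92.7% without UV. After joining sites within 8 nt, 226 regions of 3 or more sites held 0.436% of the CTCF-ΔZF1 list, compared with 54 regions and 0.159% without UV and 5569 regions and 7.63% for WT CTCF. The ΔZF1 list of ESCs had 3042 such regions, with 4.26% of its sites. A noXL site stood within 5 nt of 4.36% of CTCF-ΔZF1 sites (4.26 to 4.46), and a WT site within 5 nt of 13.8%. CTCF-ΔZF1 sites next to a noXL site were on uridine in 44.7% of cases, and the others in 59.2%.

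Exons took a larger share of the CTCF-ΔZF1 list than of the control, and introns a smaller one. Sites in coding exons numbered 52444 with CTCF-ΔZF1 and 32255 without UV, 33.1% and 30.1% of the lists, a share ratio of 1.10 (1.09 to 1.11). The 3′ UTRs held 14.2% and 13.1%, a share ratio of 1.08 (1.06 to 1.10), and exons of noncoding RNAs 1.41% and 1.26% (1.12, 1.05 to 1.20). Introns, here all positions inside a gene and outside its exons, held 43.1% and 45.2%, a share ratio of 0.954 (0.946 to 0.963). The share ratio was 0.893 for 5′ UTRs, 0.588 for positions antisense to genes and 0.714 for intergenic positions. On bases other than uridine each part held fewer CTCF-ΔZF1 than noXL sites, except the 5′ UTRs, where the ratio was 1.06 (1.01 to 1.10), and the interval of noncoding exons held 1 (0.859 to 1.03). At uridines every part had more CTCF-ΔZF1 sites. The uridine ratio was 4.05 in coding exons (3.95 to 4.16), 3.50 in 3′ UTRs (3.38 to 3.62), 2.74 in introns (2.68 to 2.79) and 2.19 in 5′ UTRs (2.06 to 2.34), and 1.73 outside genes. The uridine share of sites in coding exons was 56.8% with CTCF-ΔZF1, 22.8% without UV and 66.4% with WT CTCF. In 5′ UTRs it was 38.5%, 23.2% and 41.0%. The share of CTCF-ΔZF1 sites with a noXL site within 5 nt also differed between parts. It was 21.8% antisense to genes, 19.1% in intergenic positions, 12.6% in 5′ UTRs, 11.4% in noncoding exons, 4.44% in coding exons, 3.29% in 3′ UTRs and 2.30% in introns.

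**Figure D1:**
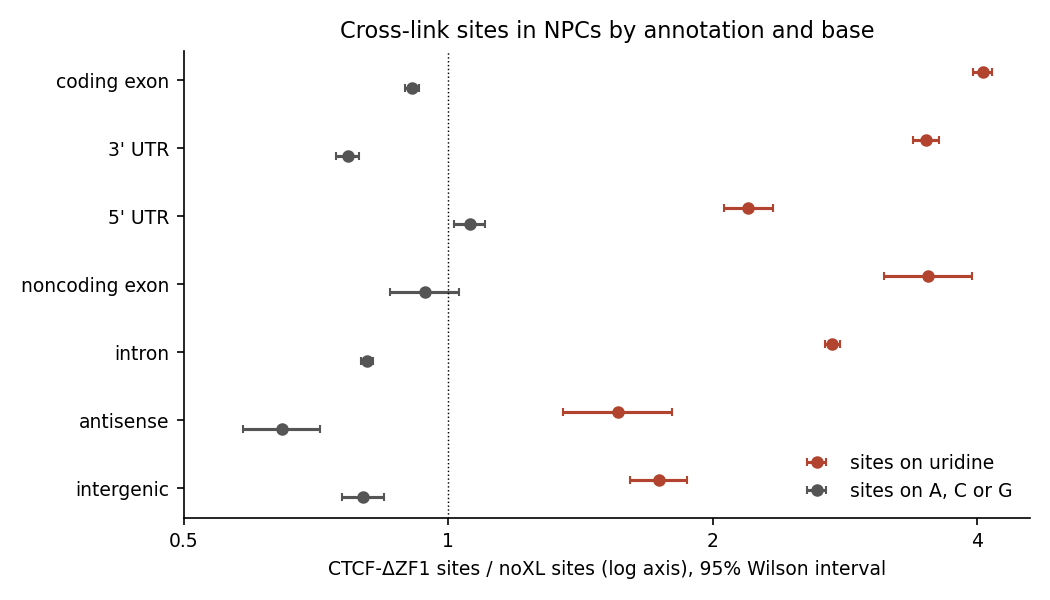
Ratio of CTCF-ΔZF1 to noXL sites (log axis) in each part of the annotation, for sites on uridine and on the other bases, with 95% Wilson intervals. The uridine ratios run from 1.56 in antisense positions to 4.05 in coding exons, whereas those of the other bases lie between 0.646 and 1.06.

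Within introns the ratio differed between distances from splice sites, with no single course. Only sites inside exactly 1 gene were used for this, 65148 with CTCF-ΔZF1 and 46250 without UV, a ratio of 1.41. The polypyrimidine tract, the uridine- and cytidine-rich stretch before the end of an intron, was measured as 4 to 18 nt before the 3′ splice site, and held 885 and 438 sites, a ratio of 2.02 (1.80 to 2.27). Just upstream, at 20 to 50 nt, where branch points usually lie, the lists were level with 939 and 948 sites, a ratio of 0.991 (0.905 to 1.08). The bases in that zone differed. Adenosine made up 43.2% of its noXL sites and 14.3% of its CTCF-ΔZF1 sites, whereas uridine made up 24.4% and 57.0%. The last 3 nt of the intron held sharp maxima in both lists, 857 and 778 sites, with 11.9% and 11.7% uridine and a ratio of 1.10 whose interval reaches 1.00 (upper end 1.21). At 51 to 100 nt before the 3′ splice site the ratio was 1.36 (1.25 to 1.49), and in the first 100 nt after the 5′ splice site 1.37 (1.30 to 1.45). Away from splice sites it was 1.64 between 100 and 500 nt (1.59 to 1.68), 1.49 from there to 2 kb and 1.20 between 2 and 10 kb (1.18 to 1.23), then 1.46 farther in (1.41 to 1.50). By length, introns of 0.5 to 2 kb stood highest at 1.73 (1.68 to 1.79) and those of 10 to 50 kb lowest at 1.20 (1.17 to 1.22).

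**Figure D2:**
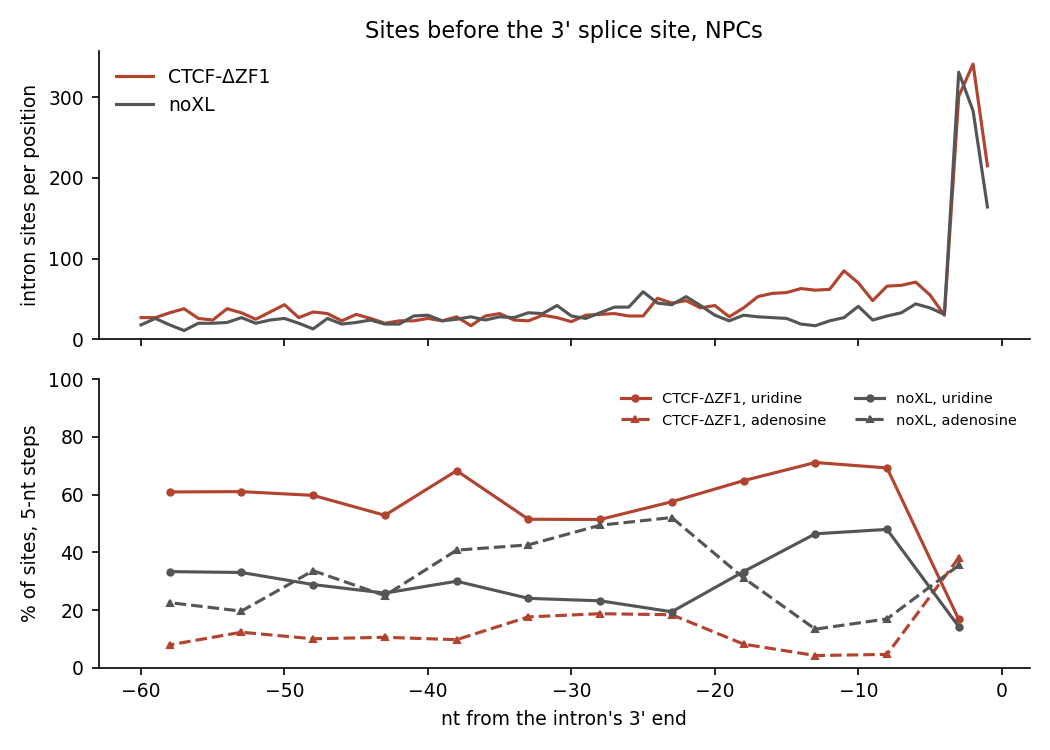
Intron sites at each nucleotide before the 3′ splice site (top) and the percentage of them on uridine or adenosine in steps of 5 nt (bottom), in the CTCF-ΔZF1 and noXL lists. The CTCF-ΔZF1 line runs above the noXL line from 5 to 18 nt (30 and 31 sites at 4 nt), both peak in the last 3 nt, and adenosine reaches its highest noXL share between 20 and 50 nt.

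Along protein-coding genes, cut into 10 bins of equal length, the CTCF-ΔZF1 list gained towards the 3′ end. Bin 1 had a ratio of 1.34 (1.31 to 1.37), with 20513 and 15294 sites. Bin 10 had 1.63 (1.60 to 1.66), with 27094 and 16654 sites. On uridine alone the same bins gave 2.58 (2.49 to 2.68) and 3.64 (3.52 to 3.76). Intron sites followed this course, from 1.29 in bin 1 (1.25 to 1.33) to 1.72 in bin 10 (1.62 to 1.82). Exon sites were low in bin 1, at 1.39 (1.35 to 1.44), and ranged from 1.55 to 1.75 in the other 9. In ESCs the intron ratio of the same mutant and control stayed between 1.12 and 1.22 over the 10 bins. With exons and introns together, the ESC ratio on uridine was 2.30 in bin 1 and 2.94 in bin 10. On all bases the ESC ratio was 1.57 in bin 1 and 1.55 in bin 10.

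Among individual RNAs, 79.3% of the genes compared held more CTCF-ΔZF1 than noXL sites, with a median log2 ratio of 0.61. A log2 ratio of at least 1 was reached by 1014 genes (27.4%) and one of at most -1 by 71 (1.92%). This count takes list lengths as they are. Uridine sites were also compared gene by gene. Of 1764 genes with at least 20 uridine sites in both lists together, 1730 (98.1%) had more of them with CTCF-ΔZF1, and the median log2 ratio was 1.62. As most uridine sites were in the CTCF-ΔZF1 list, genes reached that minimum mainly through it, and the remaining genes were not compared. Of 2109 genes with 20 sites on other bases, 31.7% had more with CTCF-ΔZF1, and the median was -0.26. Among the 1764 genes, 25 had fewer uridine sites with CTCF-ΔZF1 than without UV, 9 of them on chromosome 11, and the ones with most such sites were Rps6ka6, Sfmbt2 and Sema3e.

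To compare RNAs with one another, counts were divided by the number of sites in genes (153211 and 102002) with 1 site added to each count. The median scaled log2 ratio was then 0.02. It reached 1 in 266 genes (7.19%) and was at most -1 in 297 (8.03%). With a pseudocount of 5 in place of 1 these numbers were 95 and 233, and 29.0% of the genes past a limit were higher. With the pseudocount of 1 used throughout the higher genes were 47.2% of the genes past a limit, compared with 93.5% before scaling. The counting interval lay above 0 for 231 of the 266 higher genes and below 0 for 272 of the 297 lower genes. The same counts chose these genes and gave the intervals, so the intervals are no separate support for the calls. Of the higher genes, 199 had under 10 noXL sites, and 256 were protein-coding. Summed over the higher genes, which the rule chose for their ratio, CTCF-ΔZF1 and noXL had 4222 and 1247 exon sites (ratio 3.39, 3.18 to 3.61) and 5532 and 1052 intron sites (5.26, 4.92 to 5.62), though single genes such as Tpd52 had 4 and 3 sites in exons. In the lower genes the intron ratio was 0.437 (0.414 to 0.461) and the exon ratio 0.717 (0.684 to 0.752). Uridine made up 59.7% of CTCF-ΔZF1 sites in the higher genes and 58.1% in the lower genes.

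Chromosome 11 stood apart. It held 11761 CTCF-ΔZF1 and 12139 noXL sites, a ratio of 0.969 (0.945 to 0.994), whereas the other autosomes and X lay between 1.43 and 1.67. Its uridine ratio was 2.01, and elsewhere 3.01 to 3.50, while its uridine share with CTCF-ΔZF1 was 58.5%, as in the whole list. Of 322 genes compared on it, 85 (26.4%) were lower and 4 (1.24%), Ddx5, Cdkn2aipnl, Psme3 and Nudcd2, were higher. The median was -0.54, against 0.06 for the 3377 genes on the other chromosomes. Of those, 262 (7.76%) were higher and 212 (6.28%) lower, with chromosome 11 still counted in the scaling. With chromosome 11 left out of the scaling too, 245 of the 3377 were higher and 241 lower, and their median was -0.0041. In steps of 20 Mb along the chromosome the median stayed between -0.66 and -0.44. In ESCs the ΔZF1 and noXL lists, made from the same rescue lines, gave a site ratio of 0.967 on this chromosome and a median of -0.53 for the same genes, while the ratio of the NPC WT list to the NPC noXL list was 2.26 on it and 2.25 on chromosome 7. What lowers chromosome 11 was not tested, and its genes are given apart.

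**Figure D3:**
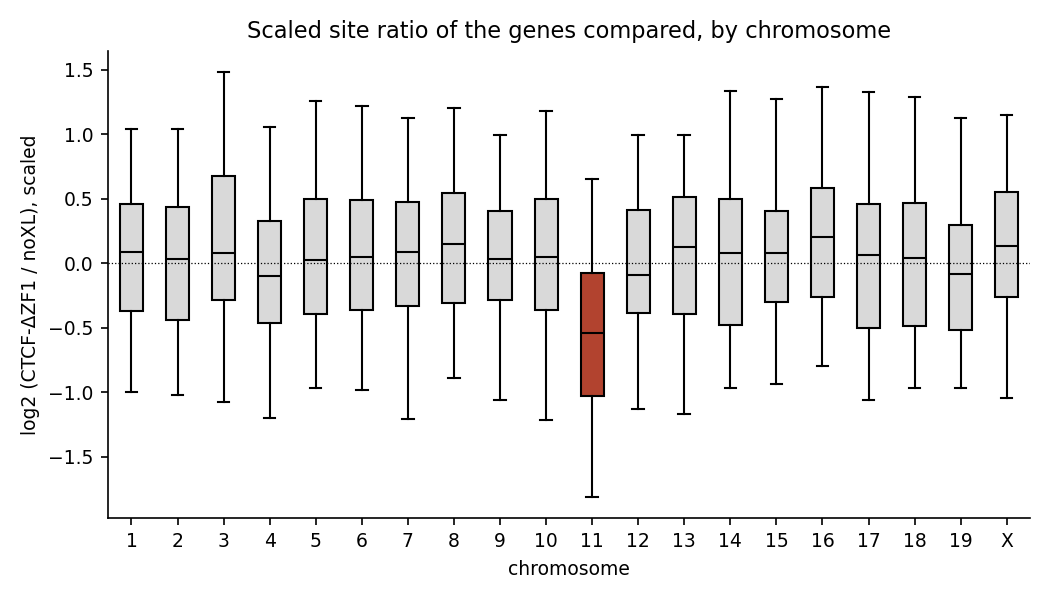
Scaled log2 ratio of CTCF-ΔZF1 to noXL sites of the 3699 genes compared, by chromosome (box, quartiles with the median; whiskers, 5th to 95th percentile). Chromosome 11, coloured, has its median at -0.54 and the other medians lie between -0.10 and 0.21.

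The genes with the highest scaled ratios outside chromosome 11, among those with at least 50 sites, are given first. Bcar3, a Cas-binding adaptor of adhesion signalling, held 69 CTCF-ΔZF1, 6 noXL and 3 WT sites (chromosome 3, 122294136 to 122530191, plus strand), a log2 ratio of 2.73 (1.77 to 4.11). Of its sites 20 and 1 were exonic and 38 and 1 lay on uridine. Smyd3, a lysine methyltransferase, had 58, 6 and 7 sites and a ratio of 2.49 (1.51 to 3.87). Bcar3 and Smyd3 thus had few WT sites as well as few noXL sites. Tpd52 had 74, 9 and 21 sites and a ratio of 2.32 (1.47 to 3.43), and Carm1, an arginine methyltransferase and coactivator, had 102, 15 and 43 and a ratio of 2.10 (1.41 to 2.95). Efna5, which encodes the axon guidance ligand ephrin-A5, had 88, 15 and 11 sites, with 58 and 1 on uridine and all but 3 and 1 in introns. Most CTCF-ΔZF1 sites were intronic in each of the 10 genes but Palld, which encodes an actin-associated protein and had 31 of 48 in exons. The other genes of the 10 were Lin52, a subunit of the DREAM cell cycle complex (44 and 6), Bcat1, a branched-chain amino acid transaminase (68 and 11), Ccdc58 (46 and 8) and Pphln1 (71 and 13). Below 50 sites, and named after their values were seen, Anxa3 had 41 CTCF-ΔZF1 sites and Plagl1, an imprinted zinc finger gene, 28, and both were listed at 0 without UV. Against a floor of 3 sites in the pooled list these are at least 9.10-fold and 6.21-fold higher after scaling. Plagl1 was listed at 0 with WT CTCF too, and so was Ccnd2, a cyclin of the early cell cycle, with 23 and 2 sites.

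The lowest genes, by the rule that chose them, had few CTCF-ΔZF1 sites for their noXL sites. Rps6ka6, a ribosomal S6 kinase gene on chromosome X (111388192 to 111537959, minus strand), held 43 CTCF-ΔZF1, 140 noXL and 363 WT sites, a log2 ratio of -2.27 (-2.78 to -1.80). Its exons ran against its introns, with 26 and 9 exonic and 17 and 131 other sites. Thsd7a had 15, 38 and 56 sites and a ratio of -1.87, and Sema3e, a semaphorin ligand of axon guidance, 40, 90 and 169 and -1.74 (-2.29 to -1.22). In Wdr5, a subunit of histone methyltransferase complexes, the counts were 15, 35 and 43, and here exons (9 and 21) and introns (6 and 14) were lower together. Also among the lowest were Pip5k1a (27 and 62), Meis2, a homeobox gene (29 and 58), Sipa1l1 (26 and 52), Gatad2b (34 and 67) and Csnk2a1 (22 and 42). Scaled in the same way, the log2 ratio of the WT list (239258 sites) over noXL was 0.19 in Rps6ka6, -0.63 in Thsd7a, -0.27 in Sema3e and -0.38 in Meis2, and it was -1.76 in Pip5k1a, -1.43 in Gatad2b, -1.17 in Sipa1l1, -1.14 in Csnk2a1 and -0.88 in Wdr5.

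Genes of chromosome 11 that held 50 or more sites were led by Slit3, Fasn and Prpf8, the 3 with the highest ratios there, and none reached 1. Slit3, a ligand of Robo receptors, held 76 CTCF-ΔZF1, 25 noXL and 11 WT sites and a log2 ratio of 0.98 (0.37 to 1.66), with 67 and 10 sites outside exons and 39 and 0 on uridine. Fasn, the fatty acid synthase, had 67 and 23 sites, 53 and 17 of them in exons, and Prpf8, a core spliceosome protein, 45 and 16. Lowest were Smg6, an endonuclease of nonsense-mediated decay, with 20, 64 and 39 sites and a ratio of -2.22 (-2.98 to -1.55), Rabep1 with 16, 46 and 51, and Zfp652 with 14, 38 and 44. Smg6 and Rabep1 were also past the lower limit in ESCs.

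**Figure D4:**
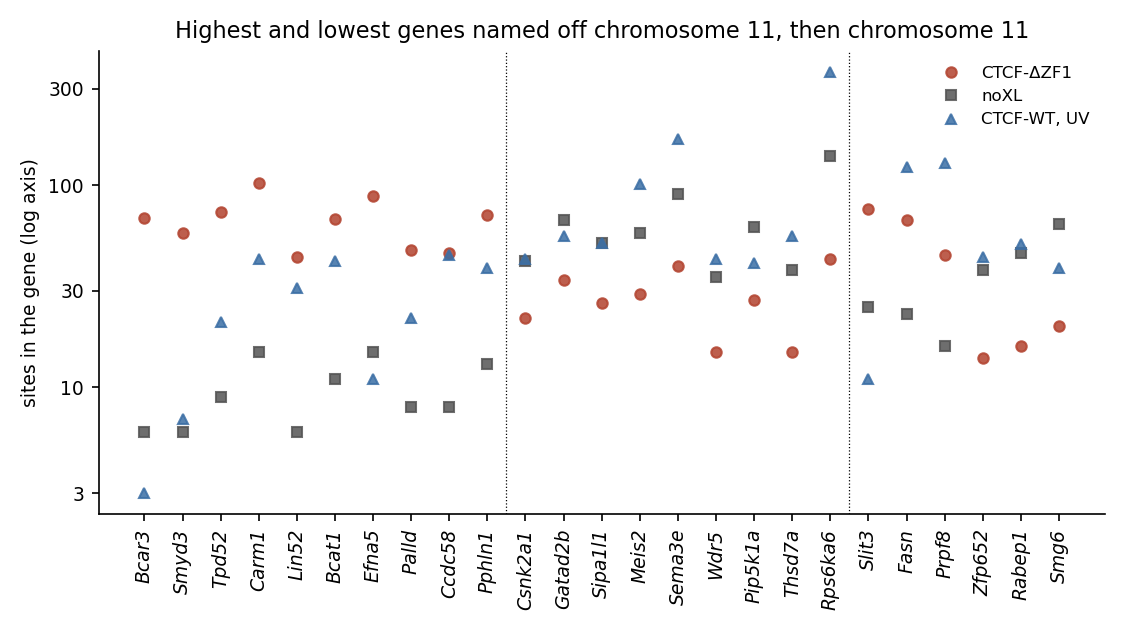
Sites per gene (log axis) in the CTCF-ΔZF1, noXL and WT lists of NPCs for the 10 highest and 9 of the lowest genes outside chromosome 11 and the 6 named on chromosome 11. The CTCF-ΔZF1 points lie above the noXL points in the first group and below them in the second, by the rule that chose the genes, and the WT points of Bcar3, Smyd3 and Efna5 sit near or below the noXL points.

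RNAs with most CTCF-ΔZF1 sites were long genes with sites in introns, and none of the 8 named here passed a limit after scaling. Magi1, a scaffold of cell junctions, held 559 CTCF-ΔZF1 and 271 noXL sites, a scaled log2 ratio of 0.45 (0.25 to 0.67), with 358 and 75 sites on uridine. Exoc4, an exocyst subunit, held 559 and 361 and a ratio of 0.04 (-0.15 to 0.23), with 359 and 123 on uridine. Grip1, a scaffold of glutamate receptors, held 433 and 174 (0.72), Rbpms, an RNA-binding protein gene, 425 and 263 (0.10), and Etl4 418 and 157 (0.82). Dst, a cytoskeletal linker, held 411 and 161 (0.76), of which 143 and 70 were exonic. For Ankrd11, a chromatin regulator, the counts were 399 and 296 (-0.16), and for Jmjd1c, a jumonji protein, 359 and 148 (0.69). All 8 had more uridine sites with CTCF-ΔZF1. Over all genes the median ratio was 0.10 for genes up to 30000 nt, -0.03 up to 100000 nt, -0.17 up to 300000 nt and -0.13 for the 87 longer genes, of which 13.8% were higher and 12.6% lower.

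Ratios were also taken for single introns. Of 870 introns with at least 20 single-gene sites in both lists together, 122 (14%) were higher and 146 (16.8%) lower after scaling to all such intron sites. The introns named here were chosen after their values were seen, and are numbered 5′ to 3′ between the merged exons of a gene. Intron 2 of Tpd52 (chromosome 3, 8964049 to 8993740, minus strand) held 57 CTCF-ΔZF1 sites spread over 16 different kilobases, 40 of them on uridine, and was listed at 0 without UV, at least 13.5-fold higher against the floor of 3. With WT CTCF it held 1 site. In ESCs the same intron held 147 ΔZF1, 4 noXL and 2 WT sites. Intron 1 of Carm1 (chromosome 9, 21547231 to 21569454, plus strand) was alike, with 62 CTCF-ΔZF1, 3 noXL and 2 WT sites in NPCs and 110, 2 and 3 in ESCs. These introns were thus high with the mutant in both cell types and low with WT CTCF in both. Intron 3 of Bcar3 held 34, 2 and 0 sites in NPCs, and intron 4 of Fndc3c1 37, 0 and 0, and neither had any ΔZF1 site in ESCs.

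The opposite pattern was found in other introns. Intron 2 of Rps6ka6 held 4 CTCF-ΔZF1, 34 noXL and 44 WT sites and intron 9 of Nsd1 3, 18 and 8. On chromosome 11, 49 of 96 introns were lower and 4 higher, with a median of -1.03 against -0.0014 elsewhere. Intron 2 of Cnot6 there held 2, 32 and 2 sites, and intron 2 of Kansl1 6, 32 and 23. Of 560 introns that also had 20 sites in ESCs, 19 were higher in both cell types (35.8% of the 53 in NPCs, 22.6% of the 84 in ESCs) and 30 were lower in both (30.3% of 99, 50.8% of 59), 16 of them on chromosome 11. Of all 560, 9.46% were higher in NPCs and 15% in ESCs, and 17.7% and 10.5% were lower. The longest lists of sites in 1 intron were in intron 1 of Grip1, with 406 and 157 sites, and in intron 1 of Ext1, a heparan sulfate polymerase gene, with 331 and 90 and a log2 ratio of 1.37 (1.05 to 1.72).

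**Figure D5:**
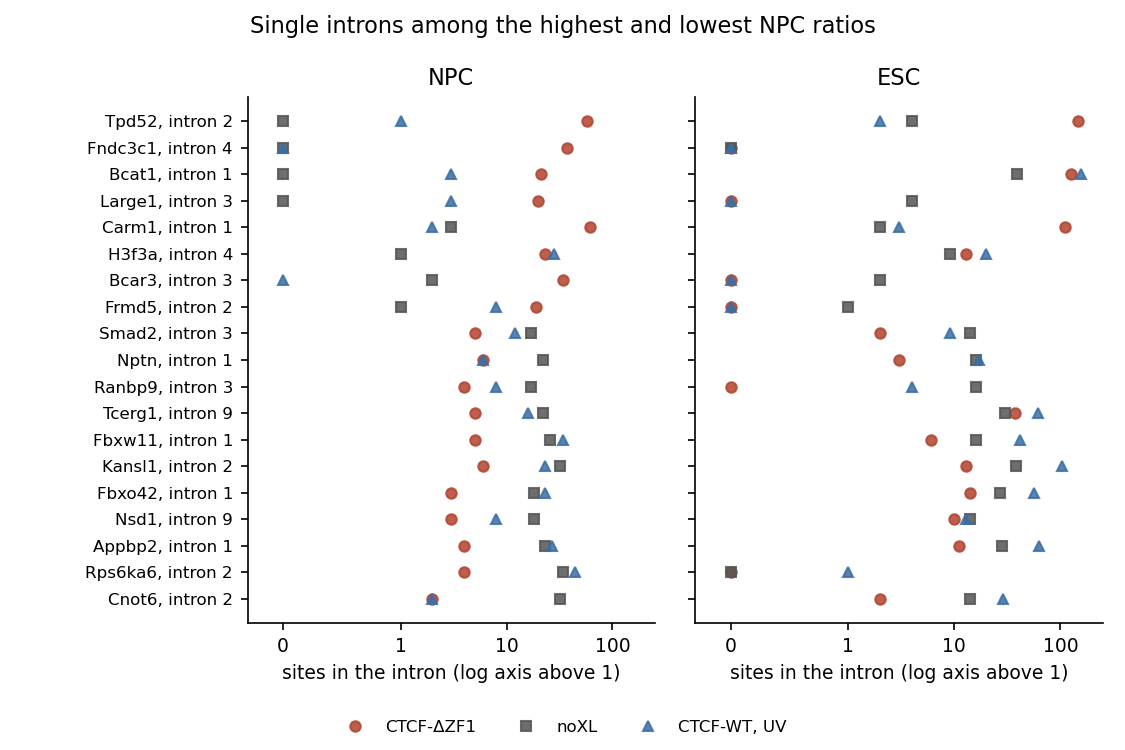
Sites in single introns among those with the highest and lowest NPC ratios (log axis above 1), in the NPC lists (left) and the ESC lists (right). Intron 2 of Tpd52 and intron 1 of Carm1 have over 50 CTCF-ΔZF1 sites in NPCs and over 100 in ESCs, with at most 4 noXL sites in either.

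Exons and introns of the same gene could differ. Of 1066 genes with 20 sites in each, 140 (13.1%) were higher on introns, 50 on exons and 4 on both. The 4 were 8% of those on exons, beside 13.1% of the 1066 higher on introns. Of those on introns they were 2.86%, beside 50 of the 1066 higher on exons. Lower ratios were found in 133 on introns, 54 on exons and 19 on both. The 19 were 35.2% of those on exons, beside 12.5% of the 1066 lower on introns. Of those on introns they were 14.3%, beside 5.07% of the 1066 lower on exons. Pphln1 had 58 and 3 sites in introns but 13 and 10 in exons, and Lgr4, a receptor of R-spondins, 63 and 5 against 18 and 11. Xpo1, the nuclear export receptor gene on chromosome 11, ran the other way, with 20 and 1 sites in exons and 98 and 83 in introns. Igf2bp1, an mRNA-binding protein gene on the same chromosome, held 29 and 4 exonic sites and 72 and 102 intronic, and Hnrnpr 36 and 5 against 18 and 24. These 5 genes were among those with the widest gap and were chosen by it.

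For each list of genes the calls are to be read against the 7.19% higher and 8.03% lower over all genes, whose median was 0.02. For members outside chromosome 11 the matching values are 7.76% higher, 6.28% lower and a median of 0.06. Of 30 early neural genes 8 were compared, and 3 were higher, Vim and Zfhx3 among them, and 1 lower (Meis2), with a median of 0.11. Vim, the intermediate filament of progenitors, held 23 CTCF-ΔZF1, 2 noXL and 20 WT sites, and Nes, its partner nestin, 32, 14 and 28. Zfhx3, a large homeobox gene of neurons, held 124, 39 and 10, and thus had fewer WT than noXL sites. Of 44 axon guidance genes 13 were compared, with 2 higher (Efna5 and Epha2), 1 lower (Sema3e) and a median of 0.35. For cell adhesion genes, 19 of 40 were compared, none passed a limit, 15 lay above 0 and the median was 0.27, with Magi1, Pard3, Ptprg and Cdh1 holding most sites. Of 25 pluripotency genes 5 were compared, with a median of -0.54, and Lin28a, an RNA-binding protein of stem cells, was lower with 23, 31 and 58 sites and a ratio of -1.002.

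Against the same 7.19% and 8.03%, and a median of 0.02 over all genes, long noncoding and imprinted RNAs were as follows. Of 26 nuclear long noncoding RNAs 11 were compared, 1 was higher and none lower, and the median was 0.40. Kcnq1ot1, the long antisense RNA of an imprinted cluster, held 222 CTCF-ΔZF1, 90 noXL and 205 WT sites and a log2 ratio of 0.71 (0.36 to 1.07), with 127 and 22 on uridine. Airn, another imprinted antisense RNA, held 148, 73 and 153 (0.42). Ftx, from the X inactivation centre, held 151, 68 and 120 (0.55), and Firre 122, 61 and 172 (0.40). The higher member was Tsix, of whose sites 91.5% also lay in another gene. Among 38 imprinted genes 18 were compared, 2 were higher (Plagl1 and Impact), none lower, and the median was 0.37. In snoRNA host genes 18 of 25 were compared, 1 was higher (Snhg14, with an interval that holds 0), and the median was 0.04. Grb10, the imprinted adaptor gene that the study followed, lies on chromosome 11 and held 132, 143 and 279 sites, a ratio of -0.70 (-1.04 to -0.36). It held 34 and 12 sites in exons and 98 and 131 in introns. The best site of Grb10 was 1 position in both lists, a guanosine of its 5′ UTR (chr11:12037391-12037411, minus strand), shown because it is shared:
Grb10 both: gtggggtgcgGggaggcggca
Podxl, a sialomucin the study also followed, held 32, 12 and 46 sites and a ratio of 0.76 with an interval that holds 0 (-0.11 to 1.77), with 21 and 2 on uridine.

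Housekeeping lists are given beside the same shares of all genes (7.19% higher and 8.03% lower). Of 33 translation factors compared 3 were higher (Eef1d, Eif2a and Eif2s2), with a median of 0.25, and of 24 ribosomal protein genes 1 (Rpl35a), with 0.09. Among 11 respiratory chain subunits 1 was higher (Uqcrc2, median 0.55), among 8 glycolysis enzymes 1 (Eno1, 53 and 14 sites, median 0.17). The counting intervals of Eef1d, Rpl35a and Uqcrc2 hold 0. None of these lists had a lower gene, and among 13 actin and tubulin genes 1 could be compared (-0.47), among 67 histone genes none (58 and 43 sites in all). The hnRNP list had 28 genes compared, none higher, 2 lower (Hnrnph3 and Pcbp2) and a median of 0.09, and the SR and splicing factor list 20, none higher, 1 lower (Srsf6) and 0.19.

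Chromatin regulators and other pathways are likewise set beside 7.19% and 8.03% of all genes. Of 12 acetyltransferase and corepressor genes compared, none was higher and 2 were lower, Kat6b among them, with a median of -0.44. The coactivator Crebbp held 57 and 66 sites, a ratio of -0.80 (-1.31 to -0.29). CHD and BAF remodellers had 17 compared, with Smarca4, the ATPase Brg1, lower (40 and 56) and a median of -0.11. Cohesin and CTCF genes had 14 compared, with Smc1a, a ring subunit, lower (30 and 48) and a median of -0.18. Large ubiquitin ligases had 16 compared, with Wwp1 higher, Rnf213 and Smurf2 lower, both on chromosome 11, and a median of -0.21. Huwe1 in that list held 283 and 230 sites, 53 and 17 of them in exons. Wnt pathway genes had 12 compared, 1 higher (Fzd7) and a median of 0.02. The members of all lists were chosen with results of these data known, and over all genes the quartiles were -0.46 and 0.44.

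The cells were checked through marker genes. The 9 NPC markers held 55 CTCF-ΔZF1 and 24 noXL sites in all, and 7 and 4 of them were at 0. Only Nes and Vim had sites in the mutant list, and Sox1, Sox2 and Pax6 were at 0 there with 2, 5 and 1 noXL sites. The 6 ESC markers held 24 and 22 sites in NPCs, against 561 and 296 in the ESC lists, and Klf4, Esrrb and Tfcp2l1 were at 0 in both NPC lists. The NPC markers held 36 and 20 sites in the ESC lists. The 4 epiblast markers held 64 and 54 sites in NPCs and 12 and 8 in ESCs, most of them in Dnmt3b (55 and 46 in NPCs). Endoderm and mesoderm markers were at 0 in both. Sites are no measure of RNA level, and the part of differentiation in the gene ratios was not tested. Ctcf itself held 23 and 17 sites, a ratio of -0.17 (-1.04 to 0.74), and these cannot be assigned to the rescue transgene or to the gene's own locus.

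The same contrast in ESCs used other libraries of the same lines. Of 3293 genes compared in both cell types, 168 (5.1%) were higher and 185 (5.62%) lower in ESCs. Higher in both were 28 genes, 13.3% of the 211 in NPCs and 16.7% of the 168 in ESCs. Lower in both were 50 genes, 20.7% of 241 and 27.0% of 185, and 40 of these lay on chromosome 11. Across genes the log2 ratios of the cell types had a Spearman correlation of 0.24, or 0.17 over the 2997 genes outside chromosome 11. Genes are not independent replicates, and both contrasts share cell lines. Tpd52 (271 and 28 sites in ESCs), Carm1 (155 and 35), Amotl2, an angiomotin family gene (23 and 5, and 70 and 16 in NPCs), and Aurka, a mitotic kinase (25 and 7, and 19 and 3 in NPCs), were higher in both. Outside chromosome 11, Sfmbt2, an imprinted Polycomb gene, was lower in both, with 47 and 81 sites in NPCs and 5 and 20 in ESCs.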

How the data were processed

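The authors used Flexbar for demultiplexing and trimming, STAR for alignment to mm10, UMI-tools for removal of duplicates and PureCLIP for calling single cross-linked nucleotides on the merged libraries of a group. Versions are not given in the sources used here. The deposited value of a site is its PureCLIP score, which is not scaled to depth. Depth is unknown, and intervals cover counting error only.

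Genes came from the GENCODE M21 basic annotation on GRCm38, the build of mm10, in the priority coding exon, 3′ UTR, 5′ UTR, noncoding exon, intron, antisense and intergenic. Gene ratios used a pseudocount of 1, scaling to genic sites, a minimum of 20 sites over the lists, and log2 limits of 1 and -1. Named genes had 50 or more sites with under 50% shared with another gene: the 10 highest and 10 lowest ratios outside chromosome 11, the 3 highest and 3 lowest on it, and the 8 with most CTCF-ΔZF1 sites. Ctcf, Podxl, Grb10 and up to 4 members with most sites of each of 20 lists were added. Members, lists and rules were chosen with earlier results of these data known. Other genes were named after their values were seen. A few genes that these rules name are not reported here. Alternatives changed score minimum, bases, chromosome 11, merging, sharing, scaling, pseudocount, minimums and annotation. Calculations were tested on simulated data. Python 3.11.15, numpy 2.4.6, pandas 2.3.3, scipy 1.17.1 and matplotlib 3.10.9 were used.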

Additional observations from a re-analysis of the deposited data

Results flagged for a closer look

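Of the genes named here, 4 passed the limits in opposite directions in the 2 cell types, each with at least 20 sites per contrast. The difference was not tested. Lin52 had a scaled log2 ratio of CTCF-ΔZF1 to noXL of 2.10 in NPCs (44 and 6 sites) and -1.44 in ESCs (7 and 14 sites). For Pphln1, which encodes periphilin, the values were 1.78 (71 and 13) and -1.68 (8 and 19). Zfhx3 stood at 1.06 (124 and 39) and -1.24 (10 and 17). Lin28a went the other way, at -1.002 (23 and 31) in NPCs and 1.47 (35 and 8) in ESCs. Over all genes compared in both cell types, 6 were higher in NPCs and lower in ESCs, and 8 the reverse.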

How the results depend on the processing

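The site ratio was 3.10 on uridine alone and 0.850 on the other bases (0.841 to 0.859). It was 1.54 without chromosome 11 and 0.969 on chromosome 11 alone. With sites within 8 nt merged it was 1.45, and without positions near the other list 1.51. The coding exon share ratio was 1.18 with scores at or above the median, 1.31 on uridine, 1.08 without chromosome 11 and 1.08 for sites in exactly 1 gene. The intron share ratio was 0.936, 0.881, 0.981 and 0.937 under the same settings, 0.945 without positions near the other list, and 0.944 with the comprehensive annotation, which was added after seeing the data. The uridine share was 59.8% with scores at or above the median and 59.2% without near positions. Counts of genes depended most on the settings. Higher and lower genes numbered 1014 and 71 without scaling, 95 and 233 with a pseudocount of 5, 63 and 74 with a minimum of 50 sites, 607 and 645 with 10, 150 and 135 with scores at or above the median, 168 and 156 on uridine, 220 and 174 on introns, and 137 and 183 on exons. With chromosome 11 left out of both the genes and the scaling, higher and lower genes numbered 245 and 241. No gene past a limit was past the opposite one under any of these settings. Among values of 134 named genes under the alternatives, 706 stayed within the counting interval and 98 did not, and no value past a limit changed sign. The cause of these shifts was not tested. No paired analysis was possible because the site lists used here were called on the 4 libraries of a group together. For the same reason no single library could be left out, and small site numbers limit single genes.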

Other observations

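Small RNA genes carried few sites, and many have near-identical copies between which the mapping could split or drop reads, so their counts are uncertain. Genes of small nuclear RNAs, the RNA cores of the spliceosome, held 138 CTCF-ΔZF1 and 29 noXL sites, a ratio of 4.76, with 63.0% and 17.2% on uridine. In ESCs their ratio was 5.60. Small nucleolar RNA genes held 173 and 148 (1.17, 0.939 to 1.46) and microRNA genes 90 and 89 (1.01, 0.755 to 1.35). Antisense RNA genes held 831 and 398 (2.09, 1.85 to 2.35), and 345 and 198 (1.74, 1.46 to 2.07) without Kcnq1ot1, Airn and Tsix, which held most of the CTCF-ΔZF1 sites. The ratio of lincRNA genes, with 1204 and 827 sites, was 1.46 (1.33 to 1.59), and that of protein-coding genes 1.50.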
